A study of Coturnix japonica with 20 samples.

Results

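The genes of the cytosolic ribosomal proteins were followed across male and female Japanese quail (Coturnix japonica) embryo livers that had been exposed to a synthetic estrogen or to its solvent. They were taken by symbol from the NCBI gene table for the species: every gene whose symbol begins with RPL or RPS and a digit, with RPLP or with RPSA, with a mean CPM, the depth-scaled count, of at least 1 over all libraries. Of 86 such symbols, 9 RPS6K kinases were left out and RPL3L, at a mean of 0.177 CPM, lay below the minimum, so that 76 of 16066 genes remained. They comprised 39 proteins of the large subunit, 3 proteins of its stalk, 29 proteins of the small subunit, 4 paralogs and RPS19BP1, which shares the prefix but is not a ribosomal protein. The 71 genes of the first 3 classes are called core genes here. All 76 passed the filter on low counts and were tested. The genes were spread over 28 chromosomes, with 10 on chromosome 1, 3 on Z and 4 with no chromosome in the gene table. RPL17, RPL18, RPL26, RPL41 and RPS18 were looked for under these symbols and were not analysed here.

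Left-lobe liver was sampled on embryonic day 9, and RNA from each liver was sequenced as 1 library. Every egg had been given 10 µl of its dosing solution in the air cell and was then incubated at 37 °C in 60% humidity. The groups were 6 females and 4 males given ethinylestradiol (EE2) at 3.33 µg per g of egg, and 5 females and 5 males given dimethyl sulfoxide (DMSO) as solvent, with sex as labelled. The design sets the estrogen response of females beside that of males. No source used here says whether embryos shared parents or how they were sexed.

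Each ribosome joins a small subunit, which reads the messenger RNA, to a large subunit, which forms the peptide bond, and each holds 1 copy of nearly every core protein. Cells therefore make these proteins in matched amounts, and their messenger RNAs belong to the TOP class, whose translation is set by the growth-sensing kinase mTOR. The embryonic liver makes most of the plasma proteins, and in egg-laying animals estrogen switches it to the export of yolk precursors. In birds, males carry a pair of Z chromosomes and females carry a Z and a W.

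Libraries held between 15298506 estimated counts (solvent female 9) and 32119466 (solvent male 2). No 2 libraries of a group were alike within counting noise. Taken as a sum, hepatocyte markers were abundant in all groups. Albumin (ALB) averaged 48090 ± 15500 CPM in EE2 females and 113300 ± 26700 CPM in EE2 males. In solvent females it averaged 146400 ± 21700 CPM and in solvent males 103500 ± 25300 CPM. The 8 hepatocyte markers tested summed to 71010 to 120700 CPM in EE2 females, 133100 to 205500 CPM in EE2 males, 149200 to 215700 CPM in solvent females and 103800 to 165900 CPM in solvent males. In EE2 females against solvent females 6 of these 8 markers fell and APOB rose, and the sums of those groups did not overlap. Among other cell types, 2 of 9 mesenchymal markers rose and 1 fell, 2 of 4 cholangiocyte markers rose and 1 fell, and none of the erythroid (5 tested), macrophage (8), endothelial (10), lymphoid and granulocyte (3) or proliferation (16) markers passed edgeR's test, with 1, 0, 1, 0 and 1 of them at an unadjusted p under 0.05. In EE2 males against solvent males 1 of the 8 hepatocyte markers rose (APOB) and 2 fell (FGB and APOA1). No marker of the other lists passed edgeR's test in males. Of the 16 proliferation markers 15 lay below 0 in that comparison, with a median log2 fold change of -0.29. At an unadjusted p under 0.05 in edgeR there were 8 of them, against 16.7% of all genes. These shifts accompany every comparison of EE2 livers below, and their part in it was not tested. In RNA from whole tissue, fewer cells of a type and less RNA per cell cannot be told apart.

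Taken as a sum, the core genes stood at nearly the same level in all groups. On library sizes scaled by the trimmed mean of M-values (TMM), the 71 genes summed to 40660 ± 1200 CPM in EE2 females (SD, n = 6), 42850 ± 1660 CPM in EE2 males (n = 4), 41940 ± 3650 CPM in solvent females (n = 5) and 43400 ± 3210 CPM in solvent males (n = 5). Single libraries ranged from 38310 CPM, in a solvent female, to 48670 CPM, in a solvent male, and the ranges of the 4 groups overlapped. As an unscaled share of all counts the same genes held 4.58% ± 0.23 in EE2 females, 4.08% ± 0.278 in EE2 males, 3.87% ± 0.376 in solvent females and 4.25% ± 0.366 in solvent males.

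**Figure D1:**
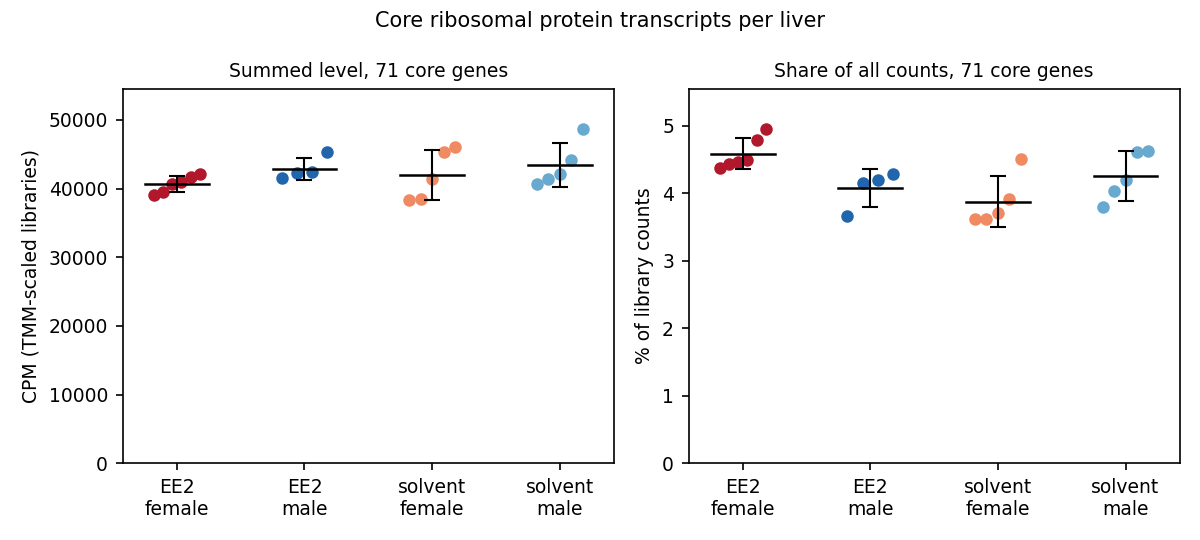
Summed level of the 71 core genes (left, CPM on TMM-scaled libraries) and their share of all counts (right, percent), 1 point per liver, with group mean and SD. On the scaled measure all groups centre between 40660 and 43400 CPM and overlap, whereas on the unscaled share EE2 females centre highest, at 4.58%, and solvent females lowest, at 3.87%.

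The 2 measures order the female groups differently. The TMM factors were 1.091 to 1.173 in EE2 females and 0.804 to 0.994 in solvent females, so a gene of equal share in both is placed lower in EE2 females after scaling. Fitted on plain library totals, the median log2 fold change of all 13501 genes in females moved to 0.30, against 0.01 with TMM, and that of the 76 ribosomal protein genes moved to 0.24, against -0.05 with TMM. Set against the median of all genes, the ribosomal protein genes lay at -0.06 under each of the 5 scalings tried. Every change below is relative to the bulk of the transcriptome in this sense.

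The effect of EE2 in females was small for nearly all of these genes. RPL22L1 rose, and RPS27L, RPL35A and RPLP1 fell. That made 4 of 76 genes called, by edgeR's quasi-likelihood test with a Benjamini-Hochberg adjusted p under 0.05, against 20.3% of all 13501 genes tested (10.2% higher and 10.1% lower). The 4 genes are 5.26% of the 76. At an unadjusted p under 0.05 there were 11 (9 lower and 2 higher), which is 14.5% of the 76 against 32.5% of all genes (15.8% lower and 16.7% higher). The absolute log2 fold change was under 0.1 for 44 of 76 genes, that is 57.9%, against 27.1% of all genes, and over 0.5 for 2 of 76, that is 2.63%, against 22.2% of all genes. The 76 genes also varied less within groups, with a median SD of 0.122 on the log2 scale against 0.241 for all genes. These shares make no allowance for that. The standard errors had a median of 0.0815 on the log2 scale, and for 71 of 76 genes the 95% interval lay inside 0.5 on either side of no change.

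In males EE2 moved none of them past the threshold. EdgeR's test called 0 of 76, against 3.27% of all genes, 0 had an unadjusted p under 0.05, against 16.7% of all genes, and limma voom and DESeq2 also called 0. The absolute log2 fold change was under 0.1 for 68 of 76 genes, against 34.2% of all genes, and under 0.2 for all 76, against 57.6% of all genes. As in females, these shares make no allowance for the narrower spread of the 76 genes within groups. RPS27L, at -0.18, and RPL22L1, at 0.10, lay at the ends of the range. For 74 of 76 genes the 95% interval lay inside 0.5 on the log2 scale, with a median standard error of 0.0903.

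**Figure D2:**
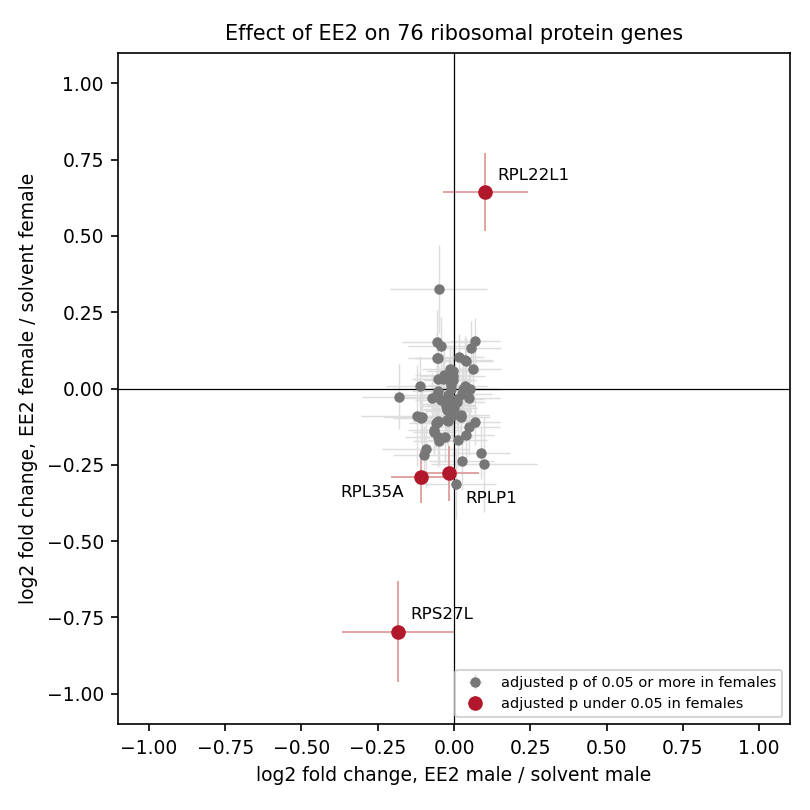
Log2 fold change of EE2 over solvent in females (vertical) and males (horizontal) for the 76 genes, with standard errors. The 4 genes called in females are red; RPL22L1 (0.64 in females) and RPS27L (-0.80 in females) lie apart from the rest, which gather around 0 in both sexes.

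RPL22L1 (NCBI gene 107318340, on chromosome 9) encodes a paralog of the large-subunit protein RPL22 that in mammals can take its place in the ribosome. It stood at 155.1, 168.5 and 193.3 CPM (lowest, median and highest) in the 6 EE2 females. The EE2 males had 103.7, 110.5, 160.3 and 166.4 CPM. The solvent females had 99.44, 99.91, 104.0, 109.1 and 137.7 CPM, and the solvent males 108.4, 115.2, 119.8, 139.9 and 146.5 CPM. Every EE2 female lay above every solvent female, whereas EE2 males split into 2 low and 2 high livers around the solvent males. In females the log2 fold change was 0.64 (SE 0.127), 1.56-fold, with an adjusted p of 0.00125 by edgeR's quasi-likelihood test, and in males it was 0.10 (SE 0.139, adjusted p 0.778). The difference between the sexes' responses was 0.54 (SE 0.188), with an unadjusted p of 0.00934 and an adjusted p of 0.174 in the edgeR fit, and did not pass.

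RPL22 itself (gene 107323480), an RNA-binding core protein of the large subunit, averaged 216.7 ± 12.9 CPM in EE2 females and 234.4 ± 27.2 CPM in solvent females. Its log2 fold change was -0.11 (SE 0.0791, edgeR adjusted p 0.348). The ratio of RPL22L1 to RPL22 counts was 0.692 to 0.861 in EE2 females, 0.471 to 0.785 in EE2 males, 0.382 to 0.550 in solvent females and 0.430 to 0.665 in solvent males. The ratio did not overlap between the female groups and did overlap between the male groups.

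RPS27L (gene 107318473, chromosome 10) encodes a paralog of the small-subunit protein RPS27 and is a target of p53 in human cells. Its level was 92.29, 114.8 and 142.2 CPM (lowest, median and highest) in EE2 females. EE2 males had 123.9, 141.3, 151.7 and 182.1 CPM. Solvent females had 159.0, 178.1, 191.8, 212.4 and 269.3 CPM, and solvent males 118.1, 141.2, 161.7, 191.2 and 238.4 CPM. All EE2 females lay below all solvent females, and the male groups overlapped over most of their range. Its log2 fold change was -0.80 in females (SE 0.166, edgeR adjusted p 0.00196), a level 0.576 times that of solvent females. In males it was -0.18 (SE 0.185, edgeR adjusted p 0.687), and the difference between the sexes, -0.61 (SE 0.247), had an adjusted p of 0.251.

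RPS27 (gene 107324474), a zinc-finger protein of the small subunit, averaged 327.5 ± 25.4 CPM in EE2 females and 380.5 ± 33.7 CPM in solvent females. Its log2 fold change of -0.22 (SE 0.0928) had an edgeR adjusted p of 0.109. The RPS27L to RPS27 ratio averaged 0.357 ± 0.0586 in EE2 females, 0.443 ± 0.0503 in EE2 males, 0.537 ± 0.135 in solvent females and 0.466 ± 0.12 in solvent males, with overlap in both sexes. The 2 paralogs were the only genes of the 76 whose female groups did not overlap, 1 higher and 1 lower, against 5.99% of all genes higher and 6.08% lower.

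**Figure D3:**
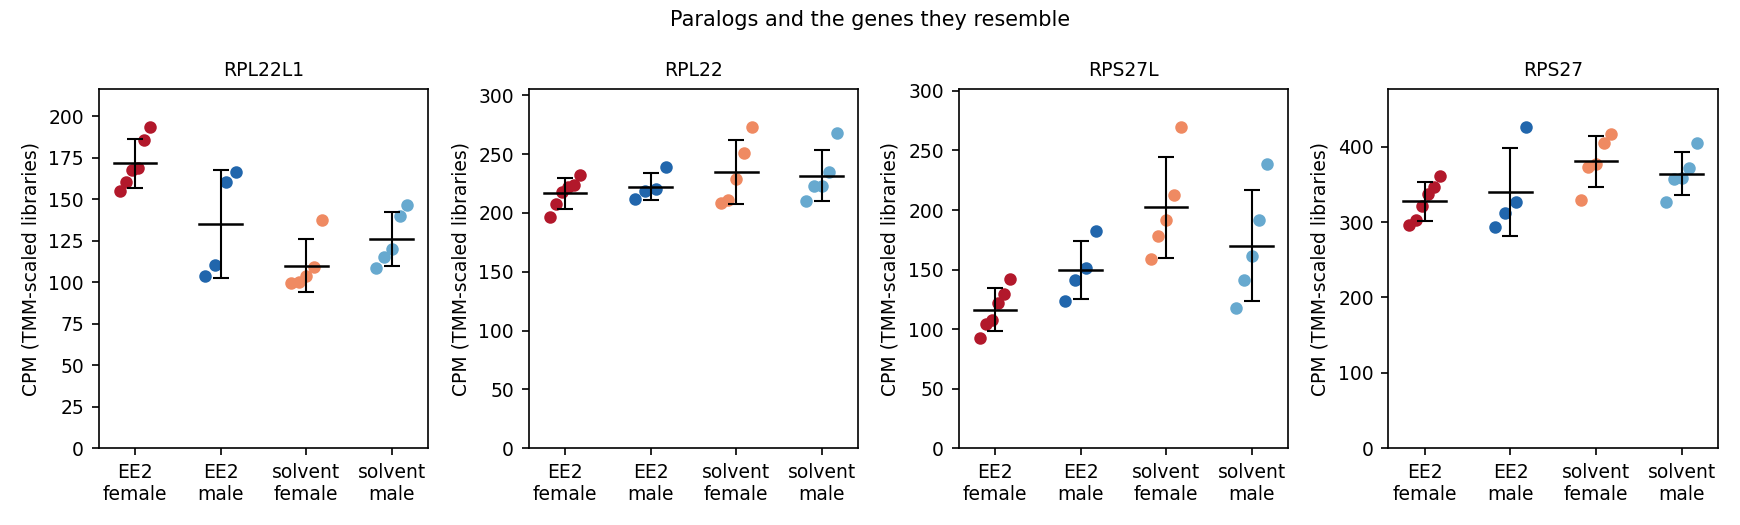
Levels (CPM on TMM-scaled libraries) of RPL22L1, RPL22, RPS27L and RPS27, 1 point per liver, with group mean and SD. RPL22L1 is highest and RPS27L lowest in EE2 females, whose points do not overlap those of solvent females; RPL22 and RPS27 overlap across all groups.

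The other paralogs moved less. RPL7L1, which in mammals serves ribosome assembly in the nucleolus, averaged 106.4 ± 20.7 CPM in EE2 females and 84.85 ± 14.9 CPM in solvent females (log2 0.33, SE 0.143, edgeR adjusted p 0.119). RPL26L1, a near relative of the large-subunit protein RPL26, averaged 441.2 ± 16.1 CPM in EE2 females and 487.3 ± 34.8 CPM in solvent females (log2 -0.14, SE 0.0642, edgeR adjusted p 0.127). RPL26 itself was not among the 76 genes under that symbol, and whether the RPL26L1 entry stands for it in quail was not tested. RPS19BP1, which binds RPS19 and regulates the deacetylase SIRT1 in human cells, was the least abundant of the 76 in mean CPM, at 20.71 ± 2.72 CPM in EE2 females and 18.63 ± 1.9 CPM in solvent females, with an edgeR adjusted p of 0.34. Counts were estimates that can divide reads between like sequences, so the levels of a paralog and its relative are less certain than those of other genes.

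Among the 39 large-subunit genes RPL35A (gene 107318174), mutated in some patients with Diamond-Blackfan anaemia, was the 1 called. It had 303.4, 317.3 and 329.4 CPM (lowest, median and highest) in EE2 females and 324.8, 331.9, 367.0, 435.2 and 476.3 CPM in solvent females. The EE2 males had 296.2, 347.1, 349.8 and 356.1 CPM and the solvent males 353.8, 354.0, 357.9, 362.3 and 391.0 CPM. The female groups overlapped at their edges, and the highest values belonged to solvent females 9 and 10. RPL35A had a log2 fold change of -0.29 in females (SE 0.0882, edgeR adjusted p 0.0252) and -0.11 in males (SE 0.098, edgeR adjusted p 0.642). Without solvent female 9 the value was -0.24 (adjusted p 0.0703), without solvent female 10 it was -0.20 (adjusted p 0.0947), and on plain library totals it was 0.01 (adjusted p 0.968).

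The remaining large-subunit genes had log2 fold changes in females between -0.25, for RPL38, and 0.16, for RPL3, with a median of -0.02. RPL3, which lies near the peptidyl transferase centre, averaged 1154 ± 84.6 CPM in EE2 females and 1036 ± 56.5 CPM in solvent females (edgeR adjusted p 0.156). RPL5 and RPL11, which carry the 5S ribosomal RNA and bind MDM2 when free, had log2 fold changes of 0.03 (SE 0.0778) and -0.00 (SE 0.0857) in females, and both groups overlapped for each.

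The stalk, through which elongation factors dock, is made of RPLP0 with RPLP1 and RPLP2. RPLP1 (gene 107310590) fell in females. EE2 females had 664.0, 734.4 and 761.4 CPM (lowest, median and highest), and solvent females had 755.9, 835.8, 851.0, 898.4 and 1067.0 CPM. EE2 males had 722.3, 776.4, 825.4 and 837.0 CPM, and solvent males 721.1, 729.9, 783.4, 804.9 and 960.3 CPM. The female groups overlapped by a single EE2 liver above the lowest solvent one, and the male groups overlapped widely. The fall in females was -0.28 on the log2 scale (SE 0.0893, edgeR adjusted p 0.0324), and the value in males was -0.02 (SE 0.0992, edgeR adjusted p 0.959). The call was lost without any of solvent females 9 and 10 or EE2 females 1, 7 and 9 (values from -0.28 to -0.20, adjusted p from 0.0534 to 0.116), and on plain library totals the value was 0.02 (adjusted p 0.887).

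RPLP0 averaged 1375 ± 120 CPM in EE2 females and 1593 ± 149 CPM in solvent females (log2 -0.21, SE 0.0855, edgeR adjusted p 0.0871). RPLP2 averaged 367.5 ± 6.61 CPM in EE2 females and 374.4 ± 81.2 CPM in solvent females (log2 -0.03, SE 0.107, edgeR adjusted p 0.893). The spread of RPLP2 in solvent females reached from 295.1 to 504.5 CPM.

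None of the 29 small-subunit genes was called in females by edgeR or limma voom, and DESeq2 called RPS29. In edgeR 4 of the 29 (RPS20, RPS25, RPS27 and RPS29) had an unadjusted p under 0.05, all lower. Of all genes, 15.8% were lower and 16.7% higher at that threshold. The median log2 fold change of the 29 was -0.09, and the range ran from -0.31 to 0.10. Of the 29, 23 were negative, against 48.1% of all genes. In males 24 of the 29 were negative, against 51.3% of all genes, with a median of -0.03. Because these genes moved together from liver to liver, as given below, their signs are not separate observations. The signs also depend on the scaling, and the male median of all 76 genes was -0.018 with TMM and 0.001 with upper-quartile scaling. RPS29, a zinc-binding protein that reaches into the head of the small subunit, averaged 227.6 ± 23.1 CPM in EE2 females and 282.5 ± 62.7 CPM in solvent females, with an edgeR adjusted p of 0.0661. RPS20 averaged 465.8 ± 24.9 CPM in EE2 females and 548.9 ± 89.2 CPM in solvent females, with an adjusted p of 0.0911. In both genes the highest solvent females were replicates 9 and 10, the same livers that were highest for RPL35A.

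The direct test of whether the EE2 response differed between females and males called 0 of 76 genes in edgeR, against 1.06% of all genes, and limma voom and DESeq2 also called 0. At an unadjusted p under 0.05 there were 3, RPL22L1, RPS27L and RPLP0, against 14.1% of all genes. For RPLP0 the difference was -0.30 (SE 0.128, edgeR adjusted p 0.282). The standard errors of this comparison had a median of 0.122, and for 65 of 76 genes the 95% interval of the difference lay inside 0.5 on the log2 scale.

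Sex separated 2 small-subunit genes on chromosome Z. RPS6, the small-subunit protein phosphorylated by S6 kinase downstream of mTOR, and RPS23, a protein of the decoding centre, were both lower in females, with EE2 and with solvent. They were the 2 of 76 genes called between females and males given EE2, against 6.47% of all genes (4.25% lower). They were also the 2 called between females and males given solvent, against 1.72% of all genes (1.41% lower).

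RPS6 (gene 107306170) had 608.3, 656.3 and 670.8 CPM (lowest, median and highest) in EE2 females and 1123, 1142, 1194 and 1285 CPM in EE2 males. With solvent it had 553.6, 555.4, 634.2, 634.6 and 728.8 CPM in females and 1109, 1116, 1178, 1264 and 1279 CPM in males. Every female lay well below every male. RPS6 in females over males had a log2 fold change of -0.88 with EE2 (SE 0.0805, edgeR adjusted p 5.9e-07), a ratio of 0.545, and -0.94 with solvent (SE 0.0806, adjusted p 3.35e-07), a ratio of 0.523.

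RPS23 (gene 107306516) had 361.2, 422.9 and 456.6 CPM (lowest, median and highest) in EE2 females and 823.8, 861.2, 879.4 and 894.0 CPM in EE2 males. With solvent it had 426.0, 430.9, 450.7, 507.6 and 528.9 CPM in females and 790.3, 823.5, 885.1, 887.7 and 1024 CPM in males. Females and males again did not overlap under either treatment, as in 1.92% of all genes with females lower under solvent. For females over males the log2 fold change was -1.04 with EE2 (SE 0.0861, edgeR adjusted p 1.81e-07), a ratio of 0.486, and -0.91 with solvent (SE 0.0862, adjusted p 1.09e-06), a ratio of 0.531.

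RPL37 (gene 107305864), a zinc-finger protein of the large subunit, is annotated on Z as well and showed no such step. It had 267.4, 285.0 and 308.1 CPM (lowest, median and highest) in EE2 females and 256.3, 267.6, 295.3 and 317.5 CPM in EE2 males. With solvent it had 229.0, 232.9, 261.7, 288.4 and 293.4 CPM in females and 236.1, 245.6, 283.2, 300.3 and 302.3 CPM in males. The sexes overlapped over nearly their whole range. The log2 fold change of females over males was 0.01 with EE2 (95% interval -0.19 to 0.21, edgeR adjusted p 0.97) and -0.07 with solvent (95% interval -0.26 to 0.13, adjusted p 0.899), and neither interval reached the values of RPS6 and RPS23. Whether its estimated counts include reads from another copy of the gene was not tested.

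**Figure D4:**
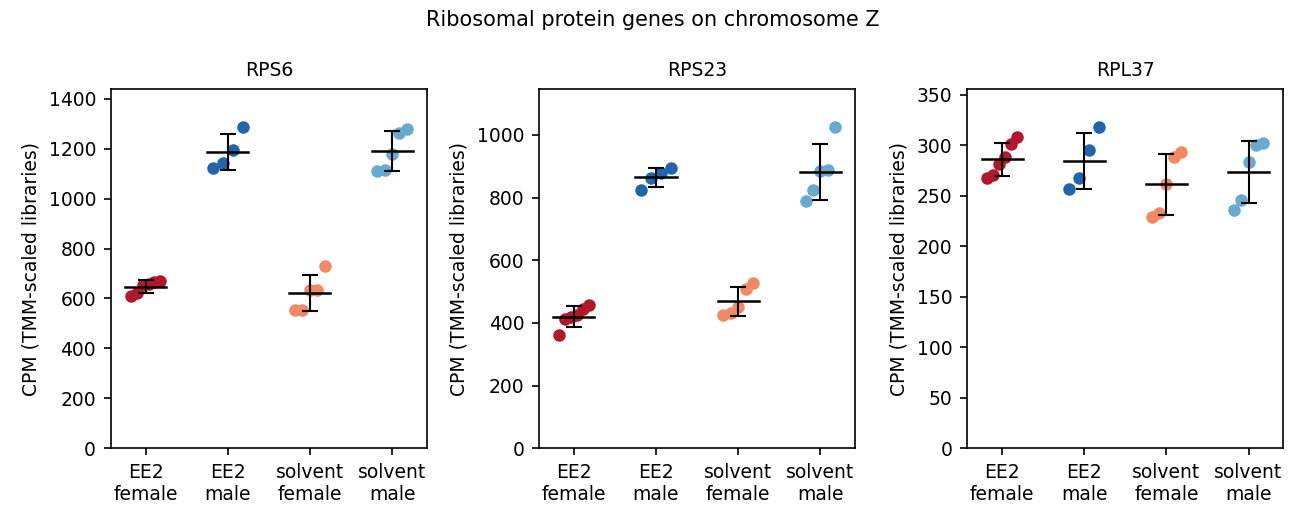
Levels (CPM on TMM-scaled libraries) of RPS6, RPS23 and RPL37, the 3 ribosomal protein genes annotated on Z, 1 point per liver, with group mean and SD. Females lie near 646 and 621 CPM for RPS6 where males lie near 1186 and 1189 CPM, and RPS23 behaves likewise, while RPL37 overlaps in all 4 groups.

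Over all 604 Z genes tested, the median log2 fold change of females over males was -0.43 with EE2 and -0.41 with solvent, and 235 and 178 of them were called lower. With EE2, 24.8% of Z genes lay below -0.8, as RPS6 and RPS23 did, and 10.9% lay within 0.1 of no change, as RPL37 did. With solvent these shares were 23.2% and 11.4%.

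The 68 core genes off Z had no calls between the sexes in either treatment by edgeR. At an unadjusted p under 0.05 there were 0 with EE2, against 21.1% of all genes, and 1 with solvent, against 9.27% of all genes. Their median log2 fold change of females over males was -0.05 with EE2 and -0.02 with solvent. Beside RPS6 and RPS23, the groups given EE2 did not overlap for RPL39, lower in females (log2 -0.16, edgeR adjusted p 0.268), and RPLP2, higher in females (log2 0.14, adjusted p 0.543), neither of which passed. Among all genes, 4.56% had females wholly below males with EE2 and 3.28% wholly above.

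RPS6 and RPS23 enter the balance of the subunits. Summed large-subunit and stalk counts over summed small-subunit counts were 1.488 ± 0.027 in EE2 females, 1.393 ± 0.0197 in EE2 males, 1.444 ± 0.0224 in solvent females and 1.36 ± 0.0303 in solvent males. Without the 3 Z genes the ratio was 1.573 ± 0.0271 in EE2 females, 1.555 ± 0.0237 in EE2 males, 1.525 ± 0.0222 in solvent females and 1.515 ± 0.0334 in solvent males. The distance between the sexes was thus smaller than the SD of the groups once the Z genes were left out. Within each sex the EE2 mean still lay above the solvent mean by more than either group's SD, though single livers overlapped. This ratio was not tested.

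The genes moved together from liver to liver within a group. After each group's mean was removed, the correlation of log2 CPM between 2 ribosomal protein genes had a median of 0.596 over 2850 pairs, with quartiles of 0.395 and 0.731, and 97.1% of the pairs were positive. These are correlations over the same 20 libraries, and all genes of a library share its scaling. The correlation between pairs of other genes is not given here, so 0.596 is not read against a background. The spread within groups was narrow, with a median SD of 0.122 on the log2 scale against 0.241 for all genes tested and 0.181 for all genes of a mean between 100 and 1500 CPM.

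The shared movement came in whole livers. In solvent male 1, 73 of 76 genes lay above their group mean, by 0.17 on average on the log2 scale. In solvent female 10 it was 72 genes (0.16), in EE2 male 4 it was 72 genes (0.10) and in solvent female 9 it was 69 genes (0.12). In solvent female 5, 72 of 76 lay below the group mean (-0.14), and in solvent female 6, 71 did (-0.13). Over all genes tested, between 48.3% and 52.2% lay above the group mean in every library. The EE2 females differed least, with mean deviations from -0.05 to 0.05, while the solvent females spanned -0.14 to 0.16.

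Solvent female 10 and solvent male 1 also had the highest shares of mitochondrial transcripts, 9.03% and 8.57% of counts, against 5.06% to 7.65% in the other libraries, solvent female 10 had the lowest TMM factor, 0.804, and solvent female 9 had the lowest depth. The part of these in the high scaled ribosomal protein levels was not tested. As an unscaled share of counts, the core genes held 3.701% in solvent female 10, below its group mean of 3.87%. In solvent female 9 the share was 4.508%, above that mean. Solvent male 1 held 4.612%, above its group mean of 4.253%, and EE2 male 4 held 4.147%, above its group mean of 4.075%.

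**Figure D5:**
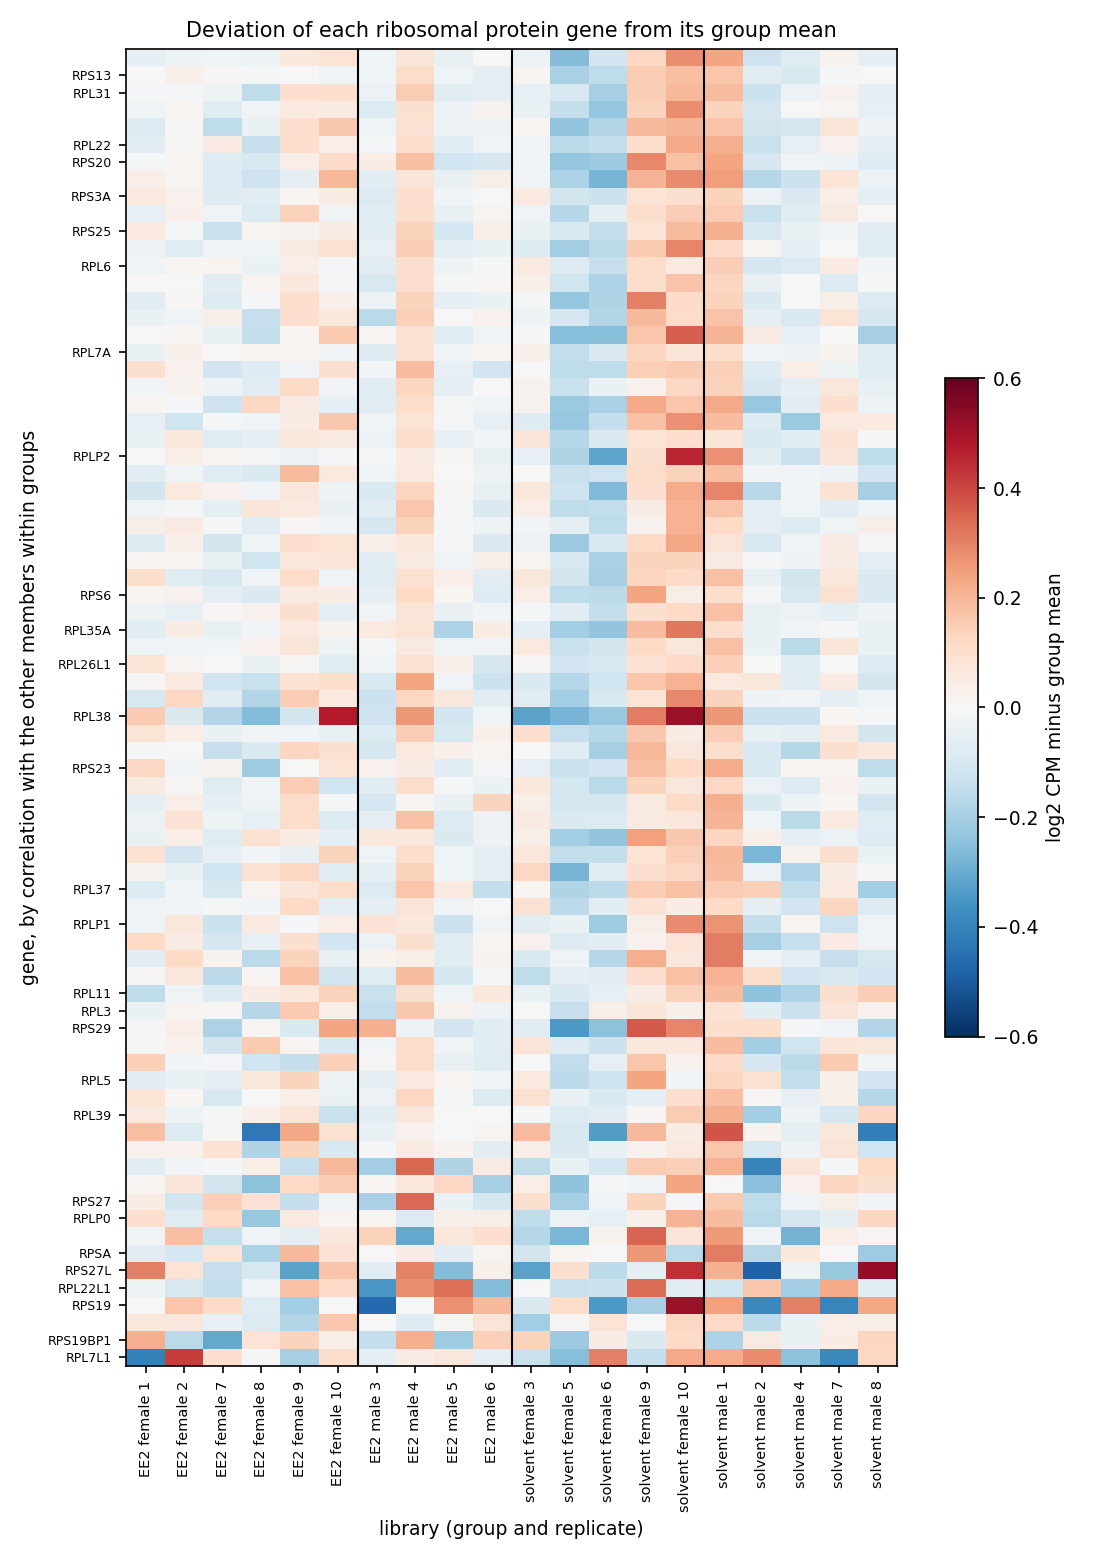
Log2 CPM of each gene minus its group mean in every library, red above and blue below, with genes ordered by their correlation with the others within groups and those named in the text labelled. Solvent male 1, solvent females 9 and 10 and EE2 male 4 are red in nearly all rows and solvent females 5 and 6 blue. The rows at the foot, core genes among them, correlate least with the others, and they include RPL7L1, RPS19BP1, RPS19, RPL22L1 and RPS27L.

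RPS13, RPL31 and RPS3A followed the mean of the other genes most closely over the 20 libraries, with r of 0.934, 0.92 and 0.913. All 3 are core proteins, RPS13 and RPS3A of the small subunit and RPL31 at the rim of the exit tunnel of the large one. RPL22L1 (-0.041), RPL7L1 (-0.036) and RPS19BP1 (0.106) followed it least. Within groups RPL22L1 reached 0.333, above the 0.256 of the core protein RPS19, while RPL7L1 had 0.072 and RPS19BP1 0.148.

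The widest spreads within groups belonged to RPS19 (SD 0.293 on the log2 scale), RPS27L (0.292) and RPL38 (0.269). RPS19, a small-subunit protein needed to mature the subunit and often mutated in Diamond-Blackfan anaemia, had 417.1, 576.6, 658.3 and 696.1 CPM in EE2 males and 508.9, 562.9, 607.8, 696.1 and 924.2 CPM in solvent females. RPL38, which in mouse embryos favours the translation of Hox transcripts, was highest in solvent females 9 and 10 and in EE2 female 10, at 314.8, 364.0 and 301.7 CPM. At the other end RPL7A had an SD of 0.074 and RPL6 of 0.081.

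Many genes that build ribosomes, as distinct from their proteins, were called higher in EE2 females. Of 46 ribosome biogenesis genes tested, 30 rose and 0 fell in EE2 females, against 10.2% of all genes higher, with a median log2 fold change of 0.30 against 0.01 for all genes and -0.05 for the ribosomal protein genes. In males 0 of 46 were called by edgeR, 2 had an unadjusted p under 0.05, DESeq2 and limma voom called 0, and the median was -0.02. The count in females ran from 21 to 33 as single libraries were left out. With a replicate block nearly all of these calls were lost, a larger part than among the calls of all genes. The counts stand in the closing section. The list was chosen with earlier results of these data known.

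NOP58, a core protein of the box C/D particles that methylate ribosomal RNA, averaged 134.2 ± 16.6 CPM in EE2 females and 81.19 ± 10.5 CPM in solvent females (log2 0.73, SE 0.109, edgeR adjusted p 0.000104). Nucleolin (NCL), an abundant nucleolar protein, averaged 780.0 ± 55.6 CPM in EE2 females and 579.9 ± 42.5 CPM in solvent females (log2 0.43, SE 0.08, adjusted p 0.000801). RRP12, WDR43 and UTP15, which serve the processing and export of the precursors, rose by 0.61, 0.48 and 0.47 on the log2 scale (adjusted p 0.00102, 0.00181 and 0.00208 in the edgeR fit).

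The female response exceeded the male one for 3 of the 46, UTP15, NOP58 and NCL, by 0.70, 0.71 and 0.51 (edgeR adjusted p 0.0307, 0.0417 and 0.0446), against 0.259% of all genes higher. That count lay between 0 and 6 when any single library was left out. Of these 20 fits, the call of NCL was lost in 16, that of NOP58 in 15 and that of UTP15 in 8. UTP15 and BRIX1 lie on Z, and UTP15 was lower in females than in males given solvent (log2 -1.01, edgeR adjusted p 2.17e-06).

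Of 18 genes of RNA polymerases I and III and their factors, 5 rose and 1 fell in EE2 females, against 10.2% of all genes higher and 10.1% lower. POLR1E, a subunit of polymerase I, rose by 0.72 (edgeR adjusted p 0.001). It lies on Z and averaged 18.15 CPM in solvent females and 37.22 CPM in solvent males. MAF1, the repressor of polymerase III, fell (log2 -0.41, edgeR adjusted p 0.00253), with a value of -0.12 (adjusted p 0.372) on plain library totals. The difference between the sexes' responses was called for MAF1 alone of the 18 (log2 -0.56, edgeR adjusted p 0.0456), against 1.06% of all genes. That call was lost in 18 of the 20 fits without a single library. Of 22 translation initiation genes 6 rose and 0 fell in EE2 females. That is 27.3%, against 10.2% of all genes higher and 20.3% called in either direction. EIF6, which keeps free large subunits apart from small ones, led (log2 0.39, SE 0.0802, edgeR adjusted p 0.00171). The count of 6 was 3 without solvent female 5 or EE2 female 9. In males 0 of the 18 and 0 of the 22 were called by edgeR, against 3.27% of all genes, with 3 and 2 at an unadjusted p under 0.05, against 16.7% of all genes.

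Of 17 elongation factors and other TOP-class genes, which share the translational control of the ribosomal proteins, the histone chaperone gene NAP1L1 alone rose in EE2 females (log2 0.43, SE 0.0986, edgeR adjusted p 0.0042). That is 5.88% against 20.3% of all genes, and 5 of the 17 had an unadjusted p under 0.05, against 32.5% of all genes. In males edgeR called 0 of them, and 0 had an unadjusted p under 0.05. RACK1, a scaffold protein of the small subunit, was not called in either sex by edgeR.

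Of 20 growth-signalling genes 4 were called in EE2 females, a share near the 20.3% of all genes, and 1 in males, 5.0% against 3.27%. MYC (log2 1.15, SE 0.238, edgeR adjusted p 0.00188), DDIT4 (log2 1.05, adjusted p 0.00859) and LARP1 (log2 0.23, adjusted p 0.023) rose and RHEB fell (log2 -0.32, adjusted p 0.0334) in EE2 females. MYC drives ribosome production, and DDIT4 restrains mTOR, which RHEB activates. LARP1, which binds the TOP motif and holds those messages back, rose in males too (log2 0.38, SE 0.0752, adjusted p 0.00675). The female call of LARP1 was lost without solvent female 9 or 10 or EE2 female 10 (adjusted p from 0.0504 to 0.0602), and its male call when males were fitted alone (0.0667) or on plain library totals (0.0696). The call of RHEB was lost without any of solvent females 5 and 10 or EE2 females 1, 7, 8, 9 and 10 (edgeR adjusted p from 0.0529 to 0.121), when females were fitted alone (0.0608) and on plain library totals (log2 -0.03, adjusted p 0.828).

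Of 73 protein genes of the mitochondrial ribosome, 1 rose and 13 fell in EE2 females. That is 19.2% called, near the 20.3% of all genes, with 17.8% lower against 10.1% of all genes and a median log2 fold change of -0.08. MRPL27 led (log2 -0.43, SE 0.101, edgeR adjusted p 0.00515), and on plain library totals its value was -0.14 (adjusted p 0.208). Without solvent female 10 the count was 6 in all. In males 1 of 73 fell, which is 1.37% against 3.27% of all genes. That gene, MRPL48 (log2 -0.32, edgeR adjusted p 0.0389), missed the threshold without any of solvent males 1, 7 and 8 or EE2 males 4, 5 and 6 (adjusted p from 0.061 to 0.135). Between the sexes 6 of 73 were lower in females given EE2, 8.22% against 4.25% of all genes, and 5 in females given solvent, 6.85% against 1.41% of all genes. MRPL17, MRPL50, MRPS36, MRPS30 and MRPS27, all on Z, were called in both, with log2 values from -1.15 to -0.82 with EE2 and from -1.05 to -0.88 with solvent.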

How the data were processed

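Left-lobe liver RNA of 20 quail embryos was sequenced, and the authors deposited 2 tables of estimated counts for 40934 coding sequences. Per the submitters' processing notes the tool was kallisto. Its version and the transcript build are not given in the sources used here, so no coordinates are printed. 52.64% of the deposited values were whole. Both tables held identical values. The table with NCBI gene identifiers was used: estimated counts were summed per gene (16066 genes, all matched to the gene table of assembly Coturnix japonica 2.1) and rounded to whole numbers.

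Genes were filtered with filterByExpr (minimum count 10, minimum total 15), which left 13501 genes and 99.9837% of the counts. All 20 libraries entered 1 edgeR 4.0.16 quasi-likelihood fit (glmQLFit, robust, TMM scaling) in R 4.3.3, with a mean per group and two-sided tests. P-values were adjusted by Benjamini-Hochberg over all genes tested and called at 0.05. SE is the absolute log2 fold change divided by the root of F, and 95% intervals use t with 16 degrees of freedom. CPM are on TMM-scaled libraries. The male and female EE2 comparisons share no library, and each sex comparison shares 1 group with each of them. The fit was tested on simulated counts.

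Alternatives were DESeq2 1.42.0 (size factors and Wald test), limma 3.58.1 (voom), other scalings, filters, fits to the compared groups alone, a replicate block, the other table and leaving out each library. The plain library totals fit was added after the data were seen. The genes and lists were chosen with earlier results of these data known. Named were all called genes, those on Z, paralogs, and the extremes of correlation and spread, with up to 5 called genes of each list. A planned ranking by level per coding length could not be applied without coding lengths, and levels are not compared between genes. The sources do not say that embryos were of separate parents, and p-values cover only the spread between these livers, which may be technical. RPS29, RPS20, RPS25, RPS27, RPL22, RPLP0, RPLP2, RPL3, RPL5, RPL11, RPL39, RPL6 and RPL7A were named after their values were seen. Values of some single genes are not reported here.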

Additional observations from a re-analysis of the deposited data

Results flagged for a closer look

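The 15 genes chosen by rule and the summed level of the core genes gave 64 sets of group values. These were screened for a library far from the others of its group, and 4 were found. That is near the share that chance gives, about 1 in 20, and is not read as an excess. RPL22L1 stood at 137.7 CPM in solvent female replicate 9, against 99.44 to 109.1 CPM in the other solvent females, and that liver is the 1 nearest to the EE2 females. RPL35A stood at 296.2 CPM in EE2 male replicate 5, against 347.1 to 356.1 CPM in the other EE2 males. RPL35A also stood at 391.0 CPM in solvent male replicate 1, against 353.8 to 362.3 CPM in the other solvent males. RPL31 stood at 314.2 CPM in EE2 male replicate 4, against 271.3 to 276.6 CPM in the other EE2 males. Solvent male 1 and EE2 male 4 are among the livers in which at least 72 of the 76 genes lay above their group mean.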

How the results depend on the processing

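Of the genes called in EE2 females, RPS27L passed under every alternative run and RPL22L1 under all but the replicate block. The count of 4 was 7 with DESeq2's Wald test (RPL26L1, RPLP0 and RPS29 added), 2 without paralogs and RPS19BP1, and 2 to 6 as each library was left out. On plain library totals, added after seeing the data, it was 47 (46 higher, 1 lower). The difference between the sexes' responses gave 16 there, and females against males with EE2 gave 13 (11 higher, 2 lower). The median of all genes moved with the scaling, to 0.30, 0.34 and 0.25. Against that median the ribosomal protein genes lay at -0.06, -0.049 and -0.054, and with TMM at -0.063, -0.05 and -0.057. The share of all genes called in females is not given here for plain totals or DESeq2. Nor is it given on plain totals for the other 2 comparisons, so these counts are not read against a background. On plain totals RPL35A (0.005), RPLP1 (0.015), RPS3A (0.214), RPS13 (0.239), MRPL37 (0.031) and MRPL18 (0.015) turned positive. The summed core level in females went the same way, with a log2 difference of 0.25 on plain totals and 0.07 on totals without mitochondrial and the 100 most abundant genes. RPL35A missed the threshold when females were fitted alone (adjusted p 0.063), and RPLP1 with upper-quartile scaling (adjusted p 0.0513). Leaving out single libraries left the counts at 0 in males and for the difference, and at 2 in both sex comparisons. With the replicate block the counts were 3 in females (RPL38 at -0.48 added, RPL22L1 at 0.51 and RPLP1 at -0.37 lost), 0 in males, 0 for the difference, 2 and 2 between the sexes, and 3 of 46 biogenesis, 1 of 22 initiation and 1 of 73 mitochondrial ribosome genes in females. No source used here says that the replicate numbers pair the livers. Deviations of same-numbered libraries correlated at -0.015 to 0.139, and 2 of 10 pairs exceeded 0.1. Of the 20 libraries, 3 correlated best with their own number. Whether same-numbered livers shared a batch or parents was not tested. Of all genes, the block left 877 of 2737 calls in females and 52 of 441 in males, and 0 of 143 for the difference, where DESeq2 gave 455. DESeq2 gave 773 in males. The 3 biogenesis calls for the difference were 9 with DESeq2 and 38 on plain totals, the latter again without the share of all genes. Solvent female 9, the shallowest library, carries more counting error, and the spread between livers limits what can be called, with a median SE of 0.0815 in females and 0.0903 in males.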
